A study of Mus musculus with 288 samples.

Results

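The genes described here are 10 members of the pathway of leukemia inhibitory factor (LIF) and its target genes in mouse embryonic stem cells: the receptor genes Lifr and Il6st, the kinase gene Jak1, the transcription factor gene Stat3, its feedback target Socs3, the Pim kinase genes Pim1, Pim2 and Pim3, and the STAT3 targets Gbx2 and Bcl3. They were looked up by name among the 54232 named rows of the deposited count table, of which 29240 had at least 1 read in the cells used, and all 10 were present with reads. The group was chosen by a measured value, the higher mean of Pim2 at 48 h than at 0 h, so that this rise is a description and supports nothing else.

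LIF binds LIFR, which pairs with gp130, the product of Il6st. The receptor-bound kinase JAK1 then phosphorylates STAT3, which enters the nucleus and activates genes that keep mouse embryonic stem cells in self-renewal. One of them, Socs3, encodes an inhibitor that binds gp130 and JAK kinases and so limits the signal. Pim1, Pim2 and Pim3 encode related serine/threonine kinases that act in survival and growth. Because these kinases have little regulation after synthesis, their activity follows their amount closely. Genes of this family are among the known targets of STAT signalling in blood cells and in embryonic stem cells. Whether Pim2 responds to STAT3 in these cells was not tested.

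Sequences upstream of the Pim genes are shown because the ratios of these paralogs differed in direction and size, with Pim2 the highest of the members and Pim1 the lowest in D1. In the 300-base RefSeq promoter windows (250 bases before to 50 bases after the start; assembly GRCm38.p6), Pim2 held 31 CpG dinucleotides, Pim3 held 40, and Pim1 held 42 at its upstream start and 5 at a second start. The median over all 32851 windows was 7, with quartiles of 3 and 20. Windows with fewer CpGs made up 89.4% of all windows for Pim2, 96.1% for Pim3 and 97.0% for the upstream start of Pim1. The stretches below run from 144 to 45 bases before each RefSeq start, on the plus strand, and end before the first GENCODE exon. Capitals mark each CpG, of which Pim1 has 15, Pim2 6 and Pim3 10 in the stretch shown. Methylation of these bases was not analysed here.
Pim1, chr17:29490641-29490740: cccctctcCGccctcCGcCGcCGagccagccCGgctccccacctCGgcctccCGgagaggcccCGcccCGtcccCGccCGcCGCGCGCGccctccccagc
Pim2, chrX:7878162-7878261: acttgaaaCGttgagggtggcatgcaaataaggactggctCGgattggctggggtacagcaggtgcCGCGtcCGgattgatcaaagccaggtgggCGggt
Pim3, chr15:88862050-88862149: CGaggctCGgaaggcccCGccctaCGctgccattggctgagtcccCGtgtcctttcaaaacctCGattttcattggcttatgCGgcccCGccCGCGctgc

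The STAT motif TTCNNNGAA, which reads the same on both strands, was searched in the 12 RefSeq promoter windows of the 10 members. It occurred once, in the window of Socs3, and in 8.30% of all 32851 windows, or in at least 1 window of 9.55% of 27025 genes. A match is a description of the letters and not a bound site, and its absence from the windows of the Pim genes says only that these letters were not in them. The Socs3 stretch lies on the minus strand outside annotated exons, with the motif in capitals from 154 to 146 bases before the RefSeq start. It lies inside the span of the GENCODE gene (chr11:117966079-117970047), whose outermost start is further upstream.
Socs3, chr11:117969452-117969580: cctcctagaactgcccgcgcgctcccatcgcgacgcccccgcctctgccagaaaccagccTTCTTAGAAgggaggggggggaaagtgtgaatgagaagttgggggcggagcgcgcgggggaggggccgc

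Cells of the line E14, from strain 129/Ola, had been kept in N2B27 medium with 2i, the pair of inhibitors CHIR99021 (against GSK3) and PD0325901 (against MEK), and were released into medium with fetal bovine serum. Both media held 20 ng/ml LIF, so that the comparison is between 2i with LIF and serum with LIF, and not between cells with and without the ligand. Single cells were sorted at 0 h (D0), 24 h (D1) and 48 h (D2) into 96 wells per time point, and their messenger RNA was sequenced in scNMT-seq, a method that also reads methylation and accessibility of the DNA of the same cell. As far as the labels show, each time point was 1 culture on 1 plate, so that time, culture and plate cannot be told apart. The cells of a plate share that culture and do not replicate the time point, and the labels were compared by description alone, without a test. Values are counts scaled to a total of 1000000 per cell (CPM), as the mean ± SD between cells, and ratios are log2 of (mean CPM + 10) unless stated otherwise.

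The filter of over 200000 reads, over 2000 genes and a mitochondrial share under 0.15 left 90 D0 cells, 50 D1 cells and 93 D2 cells, with 202157 to 43336922 reads on genes. Median numbers of detected genes were 9002, 10676 and 4744 in label order, and 7794, 8035 and 3945 with each cell thinned to 200000 reads. Of the 96 D1 wells, 46 failed the filter. Hprt, which a widely used derivative of E14 lacks, had a read in 9 of 90 D0 cells, 48 of 50 D1 cells and 7 of 93 D2 cells. The summed mean of 4 Y-linked genes was 22.9, 269 and 5.21 CPM in the same order. The D1 plate therefore stood apart from both others in genes that do not belong to the pathway, which bears on every comparison with D1. Each of the cells had over 100 CPM summed over 7 embryonic stem cell markers (Pou5f1, Sox2, Nanog, Zfp42, Esrrb, Dppa5a and Tdgf1). Summed markers of primitive endoderm, trophectoderm, mesoderm, ectoderm, fibroblasts and blood had medians of 0 in each label, except for blood in D1 at 2.14 CPM, and reached at most 181 CPM in a cell. The paper describes a group of D2 cells apart in their transcriptomes, with markers of possible cellular stress, among them Prdx6. That group was not separated here, so that D2 values are over all 93 cells, and its part in them was not tested.

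All 10 members had a mean over the labels of at least 10 CPM, the limit passed by 8641 genes. In D1 over D0, 1 member was at least 2-fold higher (Pim2) and 3 were at least 2-fold lower (Lifr, Il6st and Pim1), where 8.3% of all genes tested were higher and 19.7% lower. In D2 over D0, 2 members were higher (Pim2 and Pim3) and 2 lower (Lifr and Il6st), beside 9.78% and 20.1% of all genes. In D2 over D1, 3 members were higher (all Pim genes) and 0 lower, beside 13.3% and 10.3%, but each of these 3 calls was lost under some settings: those of Pim2 and Pim3 with summed reads (0.77 and 0.83) and that of Pim1 with no filter on cells (0.67). The median log2 ratio of the members over D0 was -0.73 at 24 h and -0.09 at 48 h, against -0.26 and -0.12 over all genes tested. The members thus included genes at both ends of the ranking as well as genes near its middle. At the upper end stood Pim2, whose rise chose the group, so that its place and its calls are description only. Its D0 mean of 6.20 CPM was below the limit of 10 CPM, which it passed through D1 and D2.

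**Figure D1:**
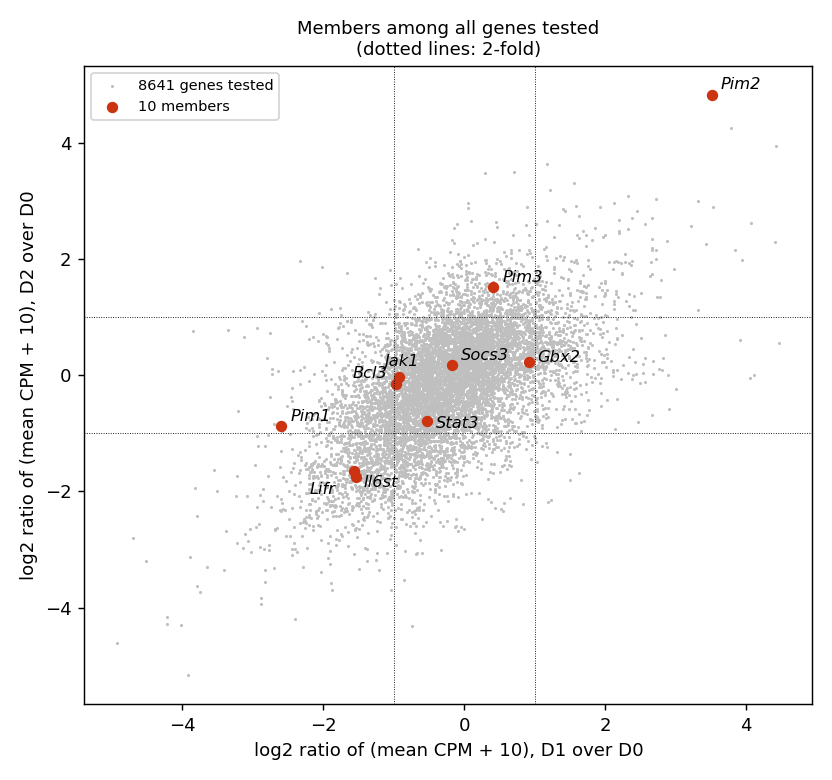
Log2 ratio of (mean CPM + 10) for D1 over D0 (x axis) against D2 over D0 (y axis), with 8641 genes as grey points, the 10 members as red points and dotted lines at 2-fold. Pim2 lies at 3.51 and 4.83 at the upper right, while Lifr and Il6st lie together below the dotted lines in both comparisons.

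Both genes of the LIF receptor complex were lower after release. Lifr (chr15:7090614-7197489, GRCm38), which encodes the ligand-binding chain, ranged up to 1073 CPM with a median of 188 in D0, up to 583 with a median of 44.7 in D1, and up to 875 with a median of 0 in D2, with a lowest cell at 0 in each. Mean levels of 223 ± 194, 70.5 ± 97.7 and 58.8 ± 165 CPM gave log2 ratios of -1.53 at 24 h and -1.76 at 48 h over D0. No cell of D1 or D2 lay above the highest D0 cell, although the ranges of the labels overlapped. Il6st (chr13:112464070-112510086), which encodes gp130, the shared signal-transducing chain of the interleukin-6 family receptors, had medians of 132, 6.4 and 0 CPM and highest cells at 499, 1074 and 679 CPM. Its mean was 147 ± 102, 43.2 ± 152 and 40.2 ± 121 CPM, with log2 ratios of -1.56 and -1.64. A single D1 cell held the highest Il6st value, and with each cell left out in turn the D1 ratio reached down to -2.29. The ratio also depended on the filter, since with all wells in use it was -0.27. With the left side of the plate alone (columns 1 to 6) the D1 ratio of Lifr was -0.92, short of 2-fold.

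Jak1 and Stat3, which carry the signal from the receptor to the nucleus, differed by less than 2-fold from D0 on this scale, a call that other settings changed. Jak1 (chr4:101152367-101265282) had medians of 54.9, 25.8 and 0 CPM and means of 77.8 ± 92.4, 36.1 ± 45 and 76.2 ± 197 CPM. The log2 ratio in D1 over D0 was -0.93, but -1.08 with a pseudocount of 1 CPM and -1.11 with none. The D2 mean was close to that of D0 (log2 ratio -0.03) although 61 of 93 D2 cells had no Jak1 read. A few D2 cells reached up to 1047 CPM, and 5 cells held 56.9% of the summed level. Stat3 (chr11:100885098-100939540) had medians of 101, 81.3 and 0 CPM and means of 121 ± 86.1, 80.9 ± 59.5 and 65.9 ± 214 CPM. In D2, a single cell at 1600 CPM, against at most 355 in D0, weighed on the mean, and leaving it out took the D2 ratio of Stat3 from -0.78 to -1.14. It was -1.74 on plate columns 7 to 12 and -0.24 on columns 1 to 6, and -0.22 with TMM factors, -0.26 with median-of-ratios factors and -0.31 with no filter on cells. Jak1 overlaps Raver2 on the other strand in annotated exons, and Stat3 overlaps Stat5a. Whether the counting used strand is not stated in the sources used here, so that reads in these overlaps are uncertain.

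The 3 members that are STAT3 targets outside the Pim family differed by less than 2-fold from D0 on the scale of (mean CPM + 10), which understates changes of genes as low as Gbx2 and Bcl3. Socs3 (chr11:117966079-117970047), the feedback inhibitor, had medians of 31.1, 18.5 and 0 CPM, highest cells at 216 CPM in D1 and 427 in D2, and means of 40.2 ± 47.9, 34.6 ± 47.5 and 46.7 ± 88.4 CPM. Its log2 ratios were -0.17 and 0.17, and each changed sign under other scalings or summaries. Gbx2 (chr1:89927956-89931179), a homeobox gene that promotes self-renewal downstream of LIF, was low throughout, at 8 ± 14.8, 23.9 ± 49.9 and 11.1 ± 45.3 CPM. Gbx2 had a read in 43 of 90 D0 cells, 33 of 50 D1 cells and 9 of 93 D2 cells, and in D2 the 9 cells with a read had a median of 99.2 CPM. Its log2 ratios were 0.92 in D1 and 0.23 in D2 over D0, and with a pseudocount of 1 CPM the D1 ratio was 1.47, past 2-fold. The D2 ratio of Gbx2 changed sign under other settings, to -0.16 with summed reads and -0.30 on plate columns 1 to 6. With 1 cell left out it reached down to -0.04. Of the 75-base stretches of Gbx2 transcripts, 41.5% also occur in transcripts of the overlapping gene D130058E05Rik, which makes the values of Gbx2 uncertain. Bcl3 (chr7:19808462-19822770), a nuclear relative of the NF-kappaB inhibitors, had medians of 14.3, 2.45 and 0 CPM and means of 19.6 ± 21.4, 5.17 ± 6.81 and 16.7 ± 45.7 CPM. Its highest D1 cell was at 28.1 CPM, against 123 in D0 and 241 in D2, and its log2 ratios were -0.96 in D1 and -0.15 in D2 over D0. The D2 ratio of Bcl3 was 0.28 with summed reads, 0.46 with TMM factors and 0.43 with median-of-ratios factors, so that its sign depended on the scaling. With a pseudocount of 1 CPM the D1 ratio of Bcl3 was -1.74, also past 2-fold.

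**Figure D2:**
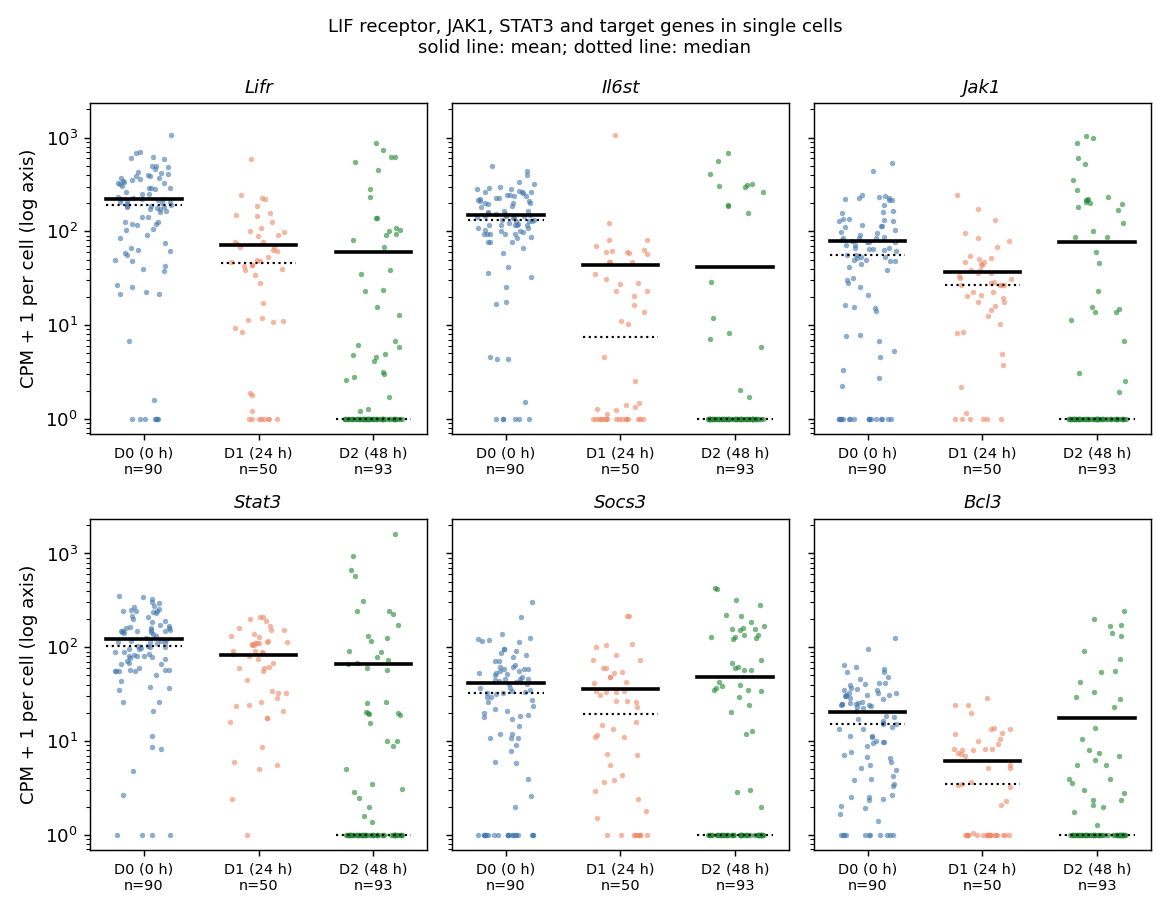
CPM + 1 in each cell (log axis) of Lifr, Il6st, Jak1, Stat3, Socs3 and Bcl3 in D0, D1 and D2, with 1 point per cell, solid lines at the mean and dotted lines at the median. In D2 the median is 0 for each of these 6 genes while some cells lie above the highest D0 cell for Il6st, Jak1, Stat3, Socs3 and Bcl3.

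Among the Pim genes, each had its own course after release. Pim1 (chr17:29490753-29496112) was the one that was lower: it reached 453 CPM with a median of 97.9 in D0, 119 with a median of 5.41 in D1, and 556 with a median of 8.25 in D2, with cells at 0 in each label. Its mean was 114 ± 83.5, 10.6 ± 18.6 and 57.7 ± 93.9 CPM, which gave log2 ratios of -2.59 in D1 and -0.87 in D2 over D0. In D1 over D0 it ranked 70th from the bottom of 8641 genes, and only 1 D1 cell exceeded 100 CPM, against 44 of 90 D0 cells. Between D1 and D2 its mean was 1.72 higher on the log2 scale, with 20 of 93 D2 cells above 100 CPM, but 0.67 higher with no filter on cells and 0.24 higher by the median over cells. The D1 ratio over D0 was -1.52 without the filter, -3.32 with a pseudocount of 1 CPM and -3.43 with none. Pim1 overlaps exons of the antisense gene Gm26885, and 7.12% of its 75-base stretches occur there as well. Reads counted on Gm26885 numbered 15 in D0, 1547 in D1 and 317 in D2, against 24599, 5220 and 14387 for Pim1.

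Pim3 (chr15:88862186-88865726) had a read in 88 of 90, 50 of 50 and 78 of 93 cells and was higher in D2. It ranged from 0 to 662 CPM around a median of 96.9 (D0), from 1.35 to 604 around 109 (D1) and from 0 to 1224 around 273 (D2). Its mean was 111 ± 93.6, 151 ± 147 and 337 ± 310 CPM, a log2 ratio of 0.41 in D1 and of 1.52 (2.86-fold) in D2 over D0. Of the members higher in D2, Pim3 was also higher by the median over cells, with a log2 ratio of 1.40. In D2, 67 of 93 cells were above 100 CPM, against 42 of 90 in D0, and 16 D2 cells lay above the highest D0 cell. No 75-base stretch of a Pim gene occurred in another Pim gene, so that no read of this length matches another paralog exactly. Matches with mismatches were not searched. Of the 75-base stretches of Pim2, 0.40% also occur in Gm21182 or Gm7645.

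Pim2 (chrX:7878262-7883432) had the largest log2 ratio of all 8641 genes in D2 over D0 and ranked 12th in D1 over D0. In D0 it ranged from 0 to 98.7 CPM with a median of 0, and 69 of 90 cells had no read. In D1 it ranged from 0 to 574 CPM with a median of 137, and 47 of 50 cells had a read. In D2 it ranged from 0 to 4772 CPM with a median of 1.11 and an upper quartile of 364, and 54 of 93 cells had a read. Means of 6.20 ± 15.9, 175 ± 164 and 452 ± 1019 CPM gave ratios of 11.4-fold (log2 3.51) at 24 h and 28.5-fold (log2 4.83) at 48 h over D0. Since its D0 mean is below the 10 CPM added, this scale understates the ratios, which were 4.61 and 5.97 on the log2 scale with a pseudocount of 1 CPM and 4.82 and 6.19 with none. Reads summed over the cells of a label gave 5.16 CPM (95% Poisson interval 4.85 to 5.48), 203 (202 to 204) and 353 (351 to 355). These intervals cover counting error only. In D1, 29 of 50 cells were above the highest D0 cell and none exceeded 1000 CPM, while in D2, 33 of 93 were above the highest D0 cell and 14 exceeded 1000 CPM.

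The order of Pim2 between D1 and D2 depended on the summary. By the mean D2 was 2.50-fold higher than D1 (log2 1.32), but by the median over cells D2 was lower (log2 -3.72), and the difference of mean log-normalized values was -0.059. Among cells with a read the median was 142 CPM in D1 and 276 in D2. In D2 the 24 cells with the most Pim2 held 94.5% of its summed level and the top 5 cells held 49.2%. In D1 the top 13 cells held 61%, and for Pim3 in D2 the top 24 cells held 59.8%. Such concentration was common among the members in D2, where the top 24 cells held 83% of Pim1, 91.9% of Socs3 and between 98.2% and 100% of Lifr, Il6st, Jak1, Stat3, Gbx2 and Bcl3. Over D0, the D2 ratio of Pim2 was 0.15 by the median over cells, with 39 of 93 D2 cells at 0. With D1 cells without an Hprt read and D0 and D2 cells with one left out, the means were 5.80, 168 and 425 CPM. The 2 D1 cells without an Hprt read had 520 and 169 CPM of Pim2, and 1 of them held the highest D1 value of Lifr (583 CPM) and the other that of Pim1 (119 CPM). Without them the D1 means of Lifr and Pim1 were 61.3 and 8.53 CPM.

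**Figure D3:**
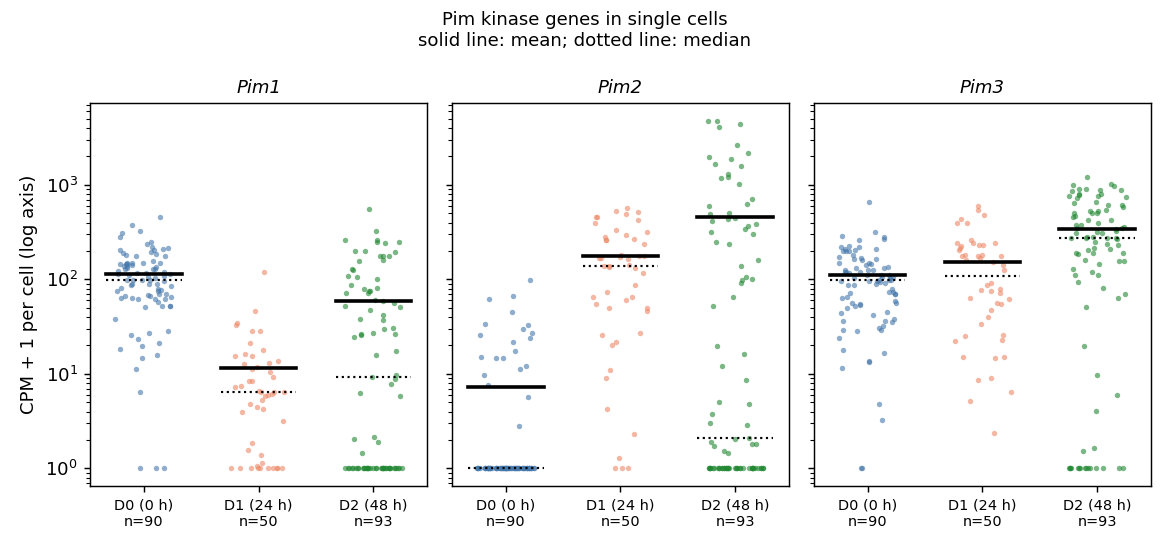
CPM + 1 in each cell (log axis) of Pim1, Pim2 and Pim3 in 90 D0 cells, 50 D1 cells and 93 D2 cells, with 1 point per cell, solid lines at the mean and dotted lines at the median. Mean and median of Pim2 lie apart in D2, at 452 and 1.11 CPM, whereas those of Pim3 lie at 337 and 273 CPM.

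Per length of the longest transcript, the 3 Pim genes summed to 91.1 CPM per kb in D0, 152 in D1 and 381 in D2. In D0 Pim3 made up 50.2% of this sum, Pim1 46.5% and Pim2 3.33%. In D1 Pim2 made up 56.3% and Pim1 2.58%, and in D2 Pim2 made up 58%, Pim3 36.4% and Pim1 5.62%. The summed level thus passed from Pim1 with Pim3 to Pim2 with Pim3. Cell by cell, Pim1 had the highest level per kb of the 3 in 42 D0 cells, 1 D1 cell and 5 D2 cells. Pim2 was highest in 2 D0 cells, 31 D1 cells and 27 D2 cells, and Pim3 in 45, 18 and 55. Although Pim2 had the highest mean per kb in D2, Pim3 was the leading Pim gene in more of the D2 cells. At equal depth, reads of all 3 Pim genes were found in 18 of 90, 28 of 50 and 23 of 93 cells, and 11 D2 cells had a read of none, against 2 in D0 and 0 in D1.

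Shares of cells with a read were compared with each cell thinned to 200000 reads. In D2 over D0 the share was smaller for 9 members and larger for Pim2 alone, in a label where 92% of all genes tested had a smaller share than in D0. The Pim2 share was 21.1% in D0 (exact 95% interval 13.2% to 31%), 90% in D1 (78.2% to 96.7%) and 46.2% in D2 (35.8% to 56.9%). For Il6st the shares were 90%, 52% and 17.2%, and for Stat3 91.1%, 98% and 35.5%. Jak1, with D0 and D2 means that nearly matched, had shares of 77.8% and 32.3%. In D1 the share was smaller than in D0 for 5 members (Lifr, Il6st, Socs3, Pim1 and Bcl3), beside 44.7% of all genes. Because the smaller number of detected genes in D2 moves with these shares, a smaller D2 share of a member is not set apart from that of most genes. Its part in the result was not tested.

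**Figure D4:**
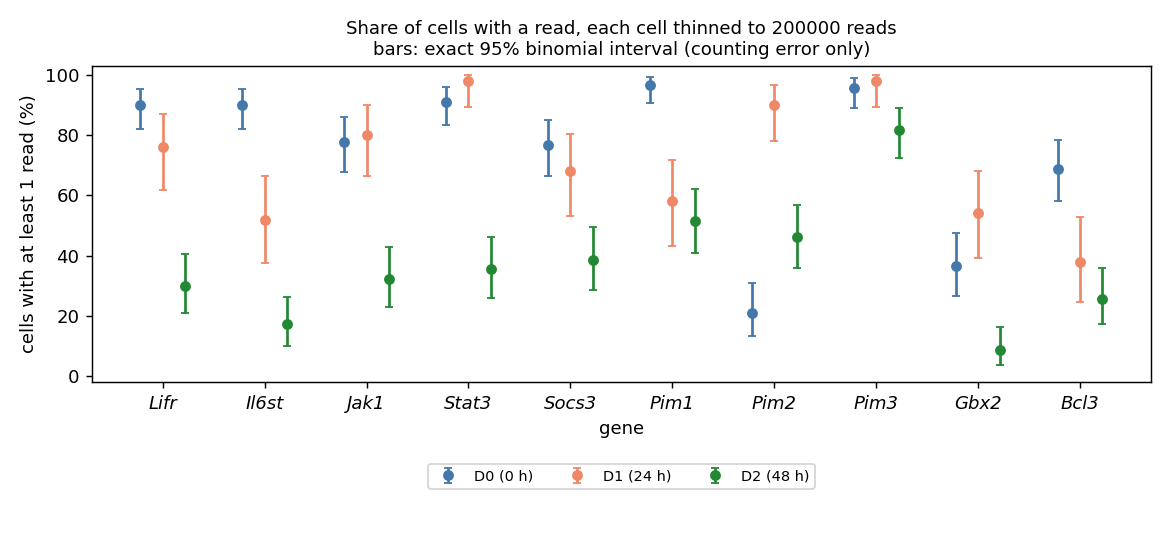
Percent of cells with at least 1 read of each member in D0, D1 and D2, with each cell thinned to 200000 reads and bars for the exact 95% binomial interval. Green points (D2) lie below blue points (D0) for each gene except Pim2, which is at 21.1% in D0, 90% in D1 and 46.2% in D2.

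Other genes of the same pathway were counted from lists, which also hold genes below the mean of 10 CPM that the background shares required. Of 33 further receptor, JAK, STAT, SOCS, PIAS, phosphatase and adaptor genes, 0 were at least 2-fold higher and 6 lower in D1 over D0, and 1 was higher and 6 lower in D2 over D0, with median log2 ratios of -0.22 and -0.19. Only 18 of the 33 reached the mean of 10 CPM, and of these 0 were higher and 5 lower in D1, and 1 higher and 5 lower in D2, beside 8.3% higher and 19.7% lower of all genes in D1 and 9.78% and 20.1% in D2. Jak3, which encodes a kinase of the common gamma chain receptors, was at 75.9, 7.09 and 7.86 CPM. Sos1, the exchange factor that links receptors to RAS, was at 76.5, 15.2 and 2.14 CPM, the lowest D2 ratio of the list (-2.83). Stat2, Socs6 and Il6ra, the last below the limit, were also lower in both, Pias2 only in D1 past 2-fold and Grb2 only in D2. The gene past 2-fold in the other direction was Gab1, an adaptor that binds GRB2 and SHP2, at 256 ± 145, 240 ± 131 and 712 ± 942 CPM (log2 1.44 in D2 over D0). Socs5 had the highest D1 ratio of the list, 0.62, at 1.02 CPM in D0 and 6.99 in D1.

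The list of other known STAT3 targets held 10 genes. In D1 over D0, 2 were at least 2-fold higher (Myc and Fos) and 2 lower (Klf4 and Tfcp2l1), and in D2 over D0, 1 was higher (Myc) and 4 lower (Klf4, Klf5, Tfcp2l1 and Mcl1). Of the 8 genes that reached the mean of 10 CPM, 1 was higher and 2 lower in D1, and 1 higher and 4 lower in D2. Over all genes tested the shares were 8.3% higher and 19.7% lower in D1, and 9.78% and 20.1% in D2. The list is short, and a difference from these shares was not tested. Fos and 1 other gene of the list were below the mean of 10 CPM, and Fos had a mean of 11.6 ± 55.3 CPM in D1 with a read in 16% of cells at equal depth. Tfcp2l1, a transcription factor of naive cells and a main effector of LIF, was at 1598 ± 533, 51.9 ± 73.2 and 220 ± 680 CPM, with log2 ratios of -4.70 and -2.80. Klf4, another naive factor, was at 85.9, 20.5 and 4.84 CPM. Myc, the growth regulator, was at 2.72, 70.9 and 73.7 CPM, with log2 ratios of 2.67 and 2.72. Mcl1, which encodes a survival factor of the BCL2 family, was at 196, 174 and 82.2 CPM. Pim2 and Myc were thus higher under the same labels in which Tfcp2l1, Klf4 and Pim1 had lower means than in D0.

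Genes that encode substrates of the Pim kinases (10 genes, of which 9 reached the mean of 10 CPM) had median log2 ratios of -0.09 in D1 and -0.47 in D2 over D0. In D1 none was 2-fold higher and 2 were lower, Cdkn1b (24.8 to 3.81 CPM) and Foxo3 (43.1 to 14.4 CPM), a cell-cycle inhibitor and a forkhead factor. The highest D1 ratio was that of Akt1s1, 0.62. In D2, Eif4ebp1, which encodes an inhibitor of cap-dependent translation, was higher, at 642 ± 473 CPM in D0 and 1325 ± 740 in D2 (log2 1.03). Cdc25a, a phosphatase of the cell cycle, was lower (70.01 to 13.8 CPM), as was the translation factor gene Eif4b (398 to 142 CPM). With 8.3% of all genes higher and 19.7% lower in D1, and 9.78% and 20.1% in D2, these counts are near the background. The values are levels of RNA and say nothing of phosphorylation.

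Pim2 lies in a gene-dense stretch of the X chromosome. Of the 5 genes with a read on each side in RefSeq, only Eras passed 2-fold over D0 on the scale of (mean CPM + 10), which understates changes of genes as low as Pcsk1n and Kcnd1. Eras, which encodes a RAS-like protein of embryonic stem cells and starts 40.8 kb from the end of Pim2, was at 0.60 ± 3.95, 42.8 ± 68.4 and 80.6 ± 119 CPM, with log2 ratios of 2.32 and 3.10. The genes between them had smaller ratios. Slc35a2, only 0.489 kb from Pim2, was at 5.24, 7.50 and 3.87 CPM. Pqbp1 was at 28.2, 50.7 and 43.3 CPM and Timm17b at 48.6, 81.9 and 74.4 CPM. Pcsk1n, which lies next to Eras, was at 0.53, 6.71 and 10.02 CPM, so that its plain means were also higher in D1 and D2. On the other side, Otud5 lay 1.68 kb away with log2 ratios of 0.28 and -0.15. Tfe3, a transcription factor gene active in naive pluripotency, had 0.92 and 0.15, and Gripap1 and Mir1198 had lower levels, from 0 to 15.1 CPM. Kcnd1 was at 2.89, 2.60 and 0.079 CPM.

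**Figure D5:**
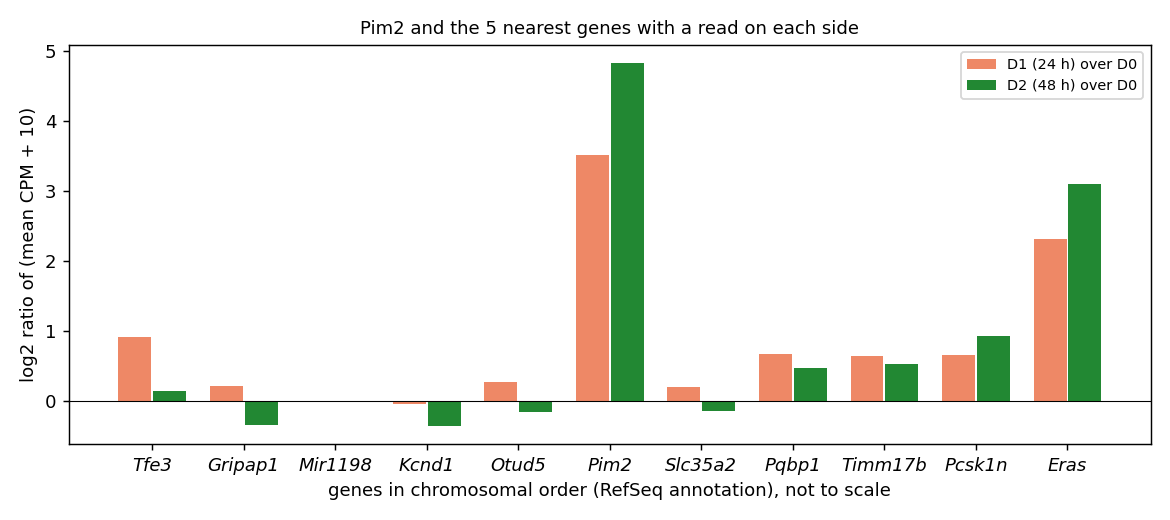
Log2 ratio of (mean CPM + 10) over D0, at 24 h and at 48 h, for Pim2 and the 5 nearest genes with a read on each side, in chromosomal order and not to scale. Pim2 (3.51 and 4.83) and Eras (2.32 and 3.10) stand above 1, while the 4 genes between them and the 5 on the other side stay under 1.

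The genes with the profile most like that of Pim2, by the distance between the pairs of log2 ratios over 3 labels, were Id1 (0.64), Dnmt3l (1.27), Aire (1.84), Prdx6 (1.93) and Id2 (1.96). Id1 was at 3.54, 177 and 249 CPM and Dnmt3l at 25.4, 748 and 535 CPM. Aire was at 2.61, 116 and 91.1 CPM, Prdx6 at 95.1, 1208 and 775 CPM, and Id2 at 10.6, 126 and 159 CPM. With a pseudocount of 1 CPM only Id1 remained among the 5 nearest, so the other places depend on how low D0 levels are handled. Spearman correlations with Pim2 were taken over the 93 D2 cells at equal depth, for 2913 genes found in at least 50% of cells. The highest were those of Tomm70a (0.44), Dhrs7b (0.42), Idh3a (0.42), Sugt1 (0.42) and Dnmt3b (0.41). The median over these 2913 genes was 0.05 and the lowest value was -0.35. Dnmt3b is a de novo DNA methyltransferase gene, at 114, 367 and 464 CPM. The points are wells of 1 plate, and Pim2 itself had a correlation of 0.29 with the number of detected genes in D2 and of 0.39 in D1.

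Spearman correlations over cells of the 45 pairs of members lay between -0.15 and 0.31 (D0), between -0.30 and 0.64 (D1) and between -0.10 and 0.26 (D2). The highest were those of Pim1 with Socs3 in D0, Pim3 with Stat3 in D1 and Gbx2 with Pim2 in D2. At equal depth, 7 of the 8 D2 cells with a Gbx2 read also had Pim2 reads, which 43 of 93 cells had. Pim1 reads were found in 62.8% of D2 cells with Pim2 and in 42% of those without, and Stat3 reads in 37.2% and 34%. Socs3 reads were found in 44.2% and 34%, Lifr reads in 34.9% and 26%, and Pim3 reads in 88.4% and 76%. Each of the other members had a larger share in D2 cells with Pim2, by little for Stat3 and for Jak1 (32.6% and 32%). Pim2 was also correlated with the number of detected genes in D2, and its part in these shares was not tested.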

How the data were processed

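The authors aligned single-cell RNA reads (paired, 75 bases each) with HISAT2 to GRCm38, per the labels, and deposited raw counts of reads per gene for 288 wells. The counting tool, its use of strand and the annotation are not given in the sources used here. Between 78.2% and 84.1% of non-zero counts were even numbers per label, as when both mates of a pair are counted, so that counting intervals may be too narrow.

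Counts were scaled to CPM by the cell's total. Because each label was 1 culture, no test was made and genes were described by a 2-fold line on (mean CPM + 10). Cells were thinned to 200000 reads (seed 1) for the shares with a read, each with a Clopper-Pearson 95% interval. No doublet caller was run on these sorted wells. Likeness used Euclidean distance of log2 ratios and Spearman correlation. Gene positions, lengths and overlaps came from GENCODE vM21, promoters and the neighbours of Pim2 from RefSeq (GRCm38.p6), and all 10 members matched. Python 3.11.15, numpy 2.4.6, pandas 2.3.3 and scipy 1.17.1 were used, with edgeR 4.0.16 for TMM factors. The computation of log2 ratios was tested on simulated data, which bears on the calculation and not on the rank of any gene. The members, lists and tests were chosen with earlier results of these data known. Named genes were the members, the extremes of each list and its genes past 2-fold, the 5 genes most like Pim2 by each measure, and its 5 neighbours on each side. Alternatives were other pseudocounts, scalings, summaries, filters, plate sides, detection limits, lengths and cells left out in turn. That with cells split by Hprt was added after seeing the data. Methylation and accessibility data were not analysed here.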

Additional observations from a re-analysis of the deposited data

How the results depend on the processing

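The log2 ratio of Pim2 in D2 over D0, 4.83, was 5.97 with a pseudocount of 1 CPM, 6.19 with none, 4.58 with summed reads, 0.15 by the median over cells, 4.73 with median-of-ratios factors, 4.95 with over 300000 reads and over 3000 genes, 4.93 on plate columns 1 to 6 and 1.08 as a difference of mean log-normalized values. It ranged from 4.68 to 4.93 with each cell left out in turn. In D2 over D1 the direction of Pim2 was opposite by the median over cells (-3.72) and for log-normalized values (-0.059), and the ratio was 0.77 with summed reads, 0.84 with TMM and 0.89 with median-of-ratios factors. That of Pim3 in D2 over D1 was 0.83, 0.90 and 0.95 in the same order. With a pseudocount of 1 CPM, 2 members were higher and 5 lower (Jak1 and Bcl3 in addition, with Gbx2 the further one higher) in D1 over D0, and 5 higher and 1 lower in D2 over D1. The shares of all genes under that pseudocount were 11.7% higher and 27.6% lower in D1 over D0, and 19.95% and 16.8% in D2 over D1. Less the median over all genes, 2 were higher in D1 over D0. The cause of these shifts was not tested. Of 480 alternative values of the 30 ratios of members, 38 changed sign, 36 of them in 11 ratios under 2-fold. Of 120 alternative shares of cells, 25 left the 95% interval. Before the pseudocount, TMM factors shifted CPM from summed reads relative to D0 by 0.21 in D1 and 0.28 in D2 (log2). No paired analysis was possible because the labels hold 1 culture each and wells of different plates share only a position.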
